A study of Mus musculus with 48 samples.

Results

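The joint macrophages described here are the cells that the authors' annotation placed both in the joint and in the macrophage type. There were 304 of them among 2230 annotated joint cells and 12096 annotated cells of the whole series, which held 1331 macrophages from all organs. Of the 304 cells, 61 came from 3 healthy mice and 243 from 5 mice with collagen-induced arthritis (CIA). The healthy mice H3, H4, and H7 gave 27, 17, and 17 cells, and the CIA mice S1, S3, S5, S6, and S8 gave 83, 27, 110, 2, and 21. S6, with 2 cells, was left out of the comparisons because 10 or more cells per mouse were required, so that 302 cells in 7 mice remained.

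The study measured single-cell RNA with Seq-Well, a method that captures cells with barcoded beads in microwells, in several organs of male DBA1/J mice. CIA is a model of rheumatoid arthritis in which mice are immunized against type II collagen of cartilage. The CIA mice had received 100 µg of bovine collagen II in complete Freund's adjuvant and a booster in incomplete Freund's adjuvant on day 20, and the healthy mice PBS. The whole knee joint was frozen, thawed, minced, and digested, and no step separated the synovium from the rest of the joint. All of these mice shared strain and sex. Adjuvant and collagen were given together, so that their effects cannot be told apart. The arthritis score, summed over the limbs, was 8 in S1 and S3, 4 to 5 in S5, 3 to 4 in S6, and 2 to 3 in S8. The sample titles of S1, S3, and H3 end in 2CIA and those of the others in CIA. This suffix is called the experiment here, although the labels do not say what it marks. Severity and this suffix cannot be told apart among the CIA mice. The question was how macrophages of the arthritic joint differed from those of the healthy joint, and in particular in genes of tissue-resident and of monocyte-derived macrophages.

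Joints hold macrophages that live there in the healthy state. They line the synovium and the tissue beneath it, clear debris, and are known for complement C1q, the hyaluronan receptor Lyve1, and scavenger receptors, and some of them for MHC class II. In arthritis, monocytes from the blood also enter the joint, where they turn into macrophages. Young monocyte-derived cells are known for the surface protein Ly6C, Plac8, and Ccr2, and they lose these as they mature.

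The label of the cells was checked against 5 genes that mark macrophages. All 5 are among the markers that the authors used to identify cell types in these cells. Their values thus describe the label and are no independent check of it. C1qb and C1qc, chains of complement C1q, stood at 166 to 1236 and 125 to 1345 CPM, which is UMIs (unique molecular identifiers) of the gene per 1000000 UMIs of the same cells, in the macrophages of the 7 mice. In the other joint cells outside the myeloid and erythroid types, called non-myeloid cells here, they stood at 5.18 to 64.0 and 0 to 27.0. Ctss, a lysosomal protease, ranged from 1442 to 5571 CPM in macrophages and from 0 to 207 in non-myeloid cells. The lysosomal protein Cd68 ranged from 188 to 395 against 0 to 42.8 CPM. In each of these 4 genes every macrophage library was above every non-myeloid library. Lyz2, which encodes lysozyme, was at 8181 to 24013 CPM in macrophages and at 599 to 3263 in non-myeloid cells, and in joint granulocytes it was at 9916 to 19933, so it did not separate these myeloid types. The receptors Csf1r and Adgre1, chosen for this check after their values were seen, were at 0 to 336 and 0 to 84.0 CPM in macrophages, and both were at 0 in S3. The annotation called only 10 of the 2230 joint cells monocytes, against 759 granulocytes, and monocyte genes within the macrophage type are described below.

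The summed libraries held 11900 to 131720 UMIs, and the median macrophage held 589 to 1256. The median mitochondrial share was 13.4% in S3 and 11.9% in S8, and 3.41 to 8.55% in the other 5 mice. No barcode was shared between the macrophages of different joint samples, against 2 among all joint cells. Macrophages with a UMI of a neutrophil granule gene made up 0% of the cells of H4, 59.3 and 70.6% of those of H3 and H7, and 67.5, 70.4, 97.3, and 100% of those of S1, S3, S5, and S8.

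Of 273 genes with enough UMIs to be tested, 28 (10.3%) differed between CIA and healthy macrophages at an adjusted p under 0.05. The higher genes were 14 (5.13%), the lower genes were also 14 (5.13%), and 57 genes passed an unadjusted p of 0.05. The genes that rose included the monocyte genes Ly6c2, Plac8, and Ms4a6c, the interferon-inducible genes Ifi27l2a and Ifitm3, and the calprotectin genes S100a8 and S100a9. Among the genes that fell were the MHC class II genes Cd74, H2-Aa, and H2-Ab1, the complement gene C1qc, and Pf4. In all 28 genes the healthy and the CIA mice did not overlap after scaling between libraries. For Ly6c2 this held by the scaling alone, as given below. Of the 273 tested genes, 57 (20.9%) did not overlap, 30 with the CIA mice higher (11%) and 27 lower (9.89%). The median log2 fold change of all tested genes was 0.02. In sums of UMIs, fewer cells of a subtype and less RNA of a gene per cell cannot be told apart. The 28 calls became 7 without H7, 18 without H3, 12 without S1, and 17 without S3. With the experiment as a term, 21 of the 28 were called, and mt-Nd1, Ifitm2, Prdx1, Tmsb10, Pf4, Map1lc3b, and Nfkbia were not (adjusted p = 0.0521 to 0.0827). Ifi27l2a, Cd74, Fos, and Vaultrc5 remained called whichever of the 7 mice was left out, and none of the 28 genes changed direction.

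Values per gene are given in the order H3, H4, and H7 for the healthy mice and S1, S3, S5, and S8 for the CIA mice, as CPM after scaling between libraries (scaled CPM), while CPM without that word is not scaled. Each test is given as the log2 fold change of CIA against healthy ± its standard error, with the adjusted p of edgeR's quasi-likelihood test.

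**Figure D1:**
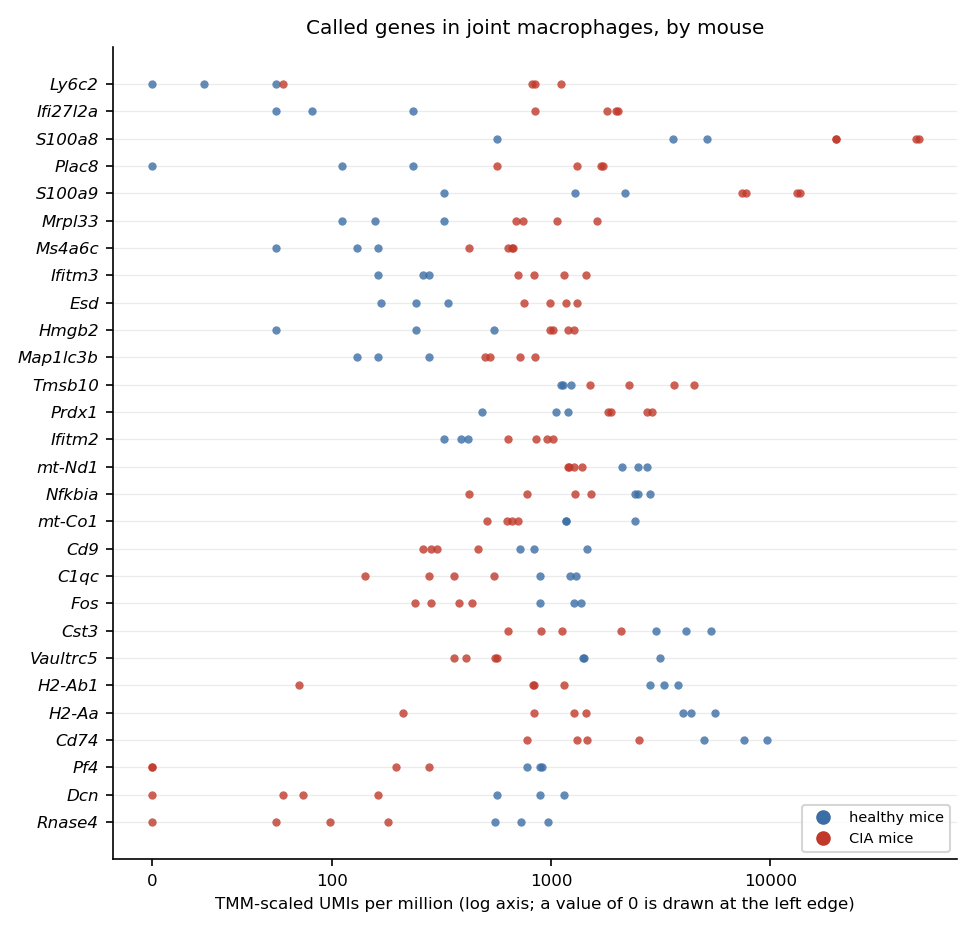
Scaled CPM in the joint macrophages (x axis, logarithmic, with 0 at the left edge) for the 28 genes that differed between CIA and healthy mice, with 1 point per healthy mouse (n = 3) and per CIA mouse (n = 4). The points of the groups do not overlap in any of the 28 genes, for Ly6c2 only by the scaling between libraries.

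Of the tested genes listed for resident macrophages, C1qc and Pf4 were lower in CIA. Their direction was partly set by the filter on low counts, as given below. C1qc, a chain of the complement component that tags debris and immune complexes, stood at 886, 1292, and 1223 scaled CPM in healthy mice and at 277, 359, 546, and 141 in CIA mice (-1.59 ± 0.39, adjusted p = 0.0323). Every CIA mouse was below every healthy mouse, with the lowest value in S8 and the highest in S5. The call held without S5 or without S8 and was lost without any of the other 5 mice, with an adjusted p of up to 0.131 without H7. C1qb, the neighbouring chain gene, was at 678, 807, and 1223 scaled CPM in healthy and 518, 179.7, 623, and 212 in CIA mice. Those groups did not overlap either, and the difference did not pass the test (-0.99 ± 0.44, adjusted p = 0.227). Both genes lie side by side on chromosome 4 of GRCm38, C1qb at chr4:136880129-136886187 and C1qc at chr4:136889804-136893065, both on the minus strand.

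Pf4, a chemokine of platelets that resident macrophages also express, fell from 912, 888, and 778 scaled CPM to 277, 0, 196, and 0 (-2.29 ± 0.63, adjusted p = 0.0491). No UMI of it was seen in S3 or S8, the CIA mice with the highest mitochondrial shares, while S1 and S5 held 277 and 196 scaled CPM. The call was lost when any mouse but S8 was left out, with an adjusted p of up to 0.196 without H3. Of the 27 genes listed for resident macrophages, 4 were tested, 2 of them fell and none rose, and the median log2 fold change of the 4 was -1.29. The 2 that fell, C1qc and Pf4, entered the test only through the healthy mice, where they were high. The filter on low counts thus pulls this median down. Apoe, a lipid carrier, did not pass (-0.06 ± 0.53, adjusted p = 0.981), and its direction turned when no filter on low counts was used. Among all 27 genes, all of which had at least 1 UMI, 8 were lower in every CIA mouse than in every healthy mouse and none was higher. The 8 were Selenop, Pf4, Lyve1, Folr2, Trem2, Igf1, C1qb, and C1qc. Of the 15400 genes with a UMI, 3.58% did not overlap, 1.81% with the CIA mice lower and 1.77% with them higher. Such a share depends on the counts of the genes, since 20.9% of the 273 tested genes did not overlap. The members of the list that were not called summed to 3776, 6555, and 4888 CPM in the healthy and 2558, 1655, 2862, and 1192 in the CIA macrophages. In non-myeloid joint cells the same members summed to 1504, 2161, and 2098 and 1298, 748, 1512, and 576, where S5 was just above H3 and the other CIA mice were below the healthy mice.

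Genes of MHC class II, which presents peptides to helper T cells, were lower in CIA. Cd74, the invariant chain that loads class II molecules, stood at 5003, 9689, and 7561 scaled CPM in healthy mice. In CIA mice it stood at 1460.3, 1318, 2507, and 776 (-2.22 ± 0.39, adjusted p = 0.00997). H2-Aa, the alpha chain, fell from 4013, 5571, and 4336 to 1275, 839, 1442, and 212 scaled CPM (-2.17 ± 0.43, adjusted p = 0.013), and H2-Ab1, the beta chain, from 2814, 3795, and 3280.2 to 823, 839, 1141, and 70.5 (-2.05 ± 0.47, adjusted p = 0.0219). For each of these genes the healthy mice were above all CIA mice, S8 was the lowest and S5 the highest of the CIA mice. Cd74 stayed called whichever mouse was left out. H2-Aa lost the call without H7 (adjusted p = 0.0613), and H2-Ab1 without H4, H7, S1, or S3 (up to 0.0865 without S1). When genes of low counts were not filtered out, the log2 fold change of Cd74 was -1.57 with an adjusted p of 0.433, and in that fit, which tested 15400 genes, the median of the 273 genes was 0.535 higher.

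The 3 tested genes were those of the 9 listed class II genes that passed the filter, and all 3 fell, with a median log2 fold change of -2.17. Of the 8 class II genes with a UMI, 7 were lower in every CIA mouse than in every healthy mouse and none was higher, the others being H2-Eb1, H2-DMa, H2-DMb1, and H2-DMb2, while 1.81% of all genes with a UMI were lower in this way. Among the 273 genes tested in all, this share was 9.89%. Summed, the class II genes made up 12030, 21597, and 17025 CPM in healthy macrophages and 4742, 2868, 6256, and 941 in CIA macrophages. Without the 3 called genes the sums were 1041, 1765, and 1686 and 639, 110.3, 736, and 0, with no UMI in S8. Non-myeloid cells held 612, 97.5, and 728 CPM in the healthy and 386, 218, 627, and 192 in the CIA mice, below the macrophages of the same mouse but overlapping between the groups, and S8 macrophages were the closest to this level. Class I genes, which present peptides to cytotoxic T cells, did not show this. None of the 3 class I genes tested was called, among them B2m (0.95 ± 0.35, adjusted p = 0.145), H2-D1 (0.00 ± 0.38, adjusted p = 0.996), and H2-K1 (0.02 ± 0.39, adjusted p = 0.996).

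Of the tested genes of blood monocytes, Ly6c2, Plac8, and Ms4a6c were higher in CIA. Their direction was partly set by the filter on low counts, as given below. Ly6c2, a chain of the Ly6C surface antigen, stood at 26.1, 0, and 55.6 scaled CPM in healthy and at 813, 59.9, 1113, and 846 in CIA mice (4.59 ± 1.02, adjusted p = 0.021). H4 held no UMI of it, and H3, H7, and S3 held a single one each. S3, at 59.9, was above H7, at 55.6, only by the scaling between libraries. Before scaling, S3 was below H7, since its library held more UMIs (18130 against 17797), so the groups overlapped. Reads of Ly6c2 and of its near-identical neighbour Ly6c1 may not be told apart fully by the authors' counting. Plac8, a small protein of monocytes and neutrophils, rose from 235, 0, and 111 to 1728, 1318, 1681, and 564 scaled CPM (3.20 ± 0.59, adjusted p = 0.00997). Ms4a6c, a membrane protein of monocytes, rose from 130.3, 161, and 55.6 to 638, 659, 672, and 423 (2.39 ± 0.50, adjusted p = 0.0162). In both genes all 4 CIA mice were above the healthy mice, and S8 was the lowest of them. Leaving out H7 ended the call of each of the 3 (adjusted p = 0.0745 for Ly6c2, 0.0707 for Plac8, and 0.0712 for Ms4a6c), and leaving out H3 that of Ly6c2 (0.0933) and Ms4a6c (0.0519). Not every such fit could test them. Ly6c2 was under the filter on low counts without S1, S5, or S8, and Plac8 and Ms4a6c without S1 or S5. In the fit without a filter, Ly6c2 lost its call without H4 (adjusted p = 0.0525).

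Of the 24 genes listed for monocyte-derived cells, 23 were in the table and 7 were tested. Ly6c2, Plac8, Ms4a6c, and Ifitm3 rose, none fell, and the median log2 fold change was 2.14. All of these that rose entered the test only through the CIA mice, where they were high. The filter on low counts thus pulls this median up. The other tested members did not pass, among them S100a4 (-0.28 ± 0.36, adjusted p = 0.712), S100a6 (-0.65 ± 0.34, adjusted p = 0.331), and F13a1 (-0.21 ± 0.48, adjusted p = 0.846). Among the 23 genes, 11 were higher without overlap in the CIA mice and none was lower, against 1.77 and 1.81% of the genes with a UMI. Among the 273 tested genes, which have higher counts, these shares were 11% and 9.89%. The 11 genes were Ly6c2 (by the scaling alone), Plac8, Chil3, Thbs1, F10, Ms4a4c, Ms4a6c, Ifitm3, Ifitm6, Hp, and Clec4e. The members that were not called summed to 10674, 8067, and 10002 CPM in healthy and 10795, 8274, 14781, and 7149 in CIA macrophages, which overlapped, with S8 the lowest of all mice and S5 the highest. Ly6c2 and Plac8, a pair chosen after their values were seen, together made up 242, 0, and 169 CPM in healthy and 2931, 1269, 3029, and 1254 in CIA macrophages. In granulocytes of the same joints they made up 584 to 1346 CPM. In the non-myeloid cells they made up 585, 89.3, and 257 in healthy and 637, 460.1, 835, and 1727 in CIA mice, and there S3 lay below H3.

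**Figure D2:**
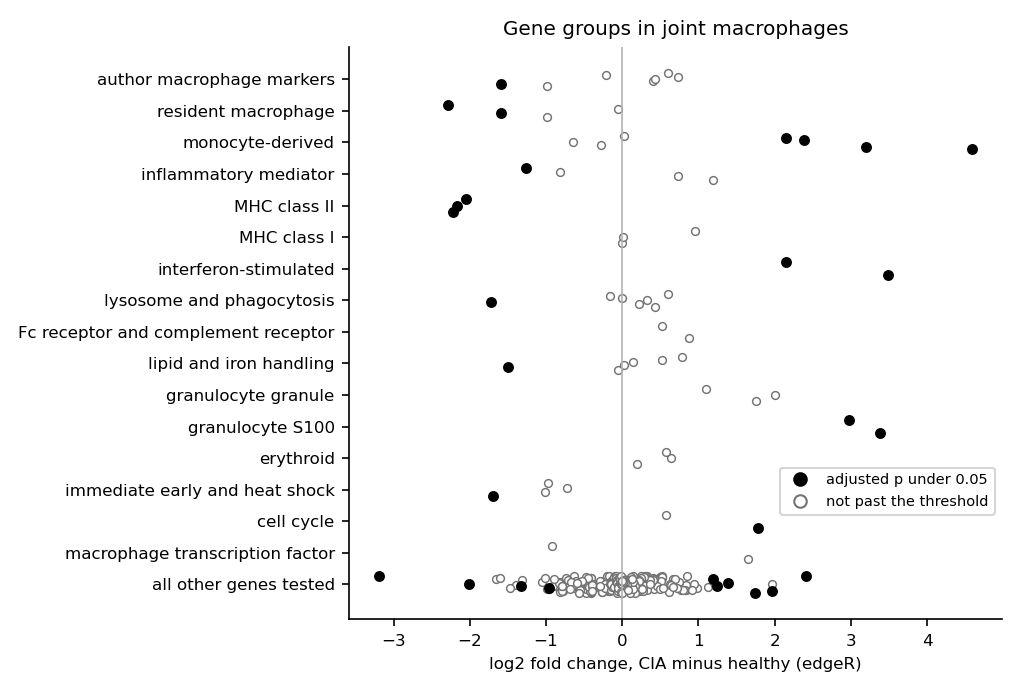
Log2 fold change of CIA against healthy joint macrophages for each tested gene (x axis), by gene list (y axis), with filled points for an adjusted p under 0.05 and open points for the rest. The 3 class II genes lie between -2.22 and -2.05, and the 4 called genes of the monocyte-derived list between 2.14 and 4.59.

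The interferon-inducible genes that could be tested were higher. Ifi27l2a, a small mitochondrial protein induced by interferon, stood at 235, 80.7, and 55.6 scaled CPM in healthy and 1969, 1797, 2024, and 846 in CIA mice (3.49 ± 0.49, adjusted p = 0.00945). S8, the CIA mouse with the lowest score, had the lowest of the CIA values, and all 4 were above H3, the highest healthy mouse. Ifitm3, a membrane protein that blocks virus entry, rose from 261, 161, and 278 to 1146, 839, 1436, and 705 scaled CPM (2.14 ± 0.38, adjusted p = 0.00997). Ifitm2, its neighbour on chromosome 7 and close in sequence, rose from 417, 323, and 389 to 850.3, 958, 1015, and 635 (1.19 ± 0.31, adjusted p = 0.0423), and reads of both may be split by the counting. Ifi27l2a was called in 18 of 18 alternatives. Ifitm3 was lost without H7 (adjusted p = 0.0613), and Ifitm2 was lost whichever mouse was left out, with an adjusted p of 0.0527 to 0.173. Ifitm2 passed the filter on low counts only through the CIA mice, which partly set its direction.

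Of the 22 interferon-stimulated genes listed, all had a UMI but only these 2, Ifi27l2a and Ifitm3, were tested, and both rose. Both passed the filter on low counts only through the CIA mice, where they were high. Their direction was thus partly set by the filter, and their rise is no result about the list. The same 2 were the members that did not overlap between the groups. The other 20 together made up 339, 252, and 225 CPM in healthy and 1343, 938, 1480, and 314 in CIA macrophages, and there S8 fell within the healthy range. In non-myeloid cells these 20 made up 522, 389.9, and 299.7 in healthy and 1028, 564, 1340, and 512 in CIA mice, and Ifi27l2a made up 45.0, 48.7, and 85.6 and 466, 322, 501, and 256. Ifi27l2a was thus higher in CIA in the other joint cells as well, without overlap.

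The promoters of Ifitm3, Ifitm2, and H2-Aa are shown because each belongs to a called gene and holds a motif known from its gene family, an interferon response element in the Ifitm genes and the Y box of class II promoters in H2-Aa. They are from a RefSeq table of GRCm38.p6 and run from 250 bases before to 50 bases after the start of the gene, 5′ to 3′ on the minus strand, on which all 3 genes lie. Capitals mark GAAA followed by any 2 bases and GAAA, a form of the interferon-stimulated response element (ISRE), in Ifitm3 (chr7:141010695-141010994) and Ifitm2 (chr7:140955912-140956211), and CTGATTGG, a form of the Y box, in H2-Aa (chr17:34287774-34288073).
Ifitm3: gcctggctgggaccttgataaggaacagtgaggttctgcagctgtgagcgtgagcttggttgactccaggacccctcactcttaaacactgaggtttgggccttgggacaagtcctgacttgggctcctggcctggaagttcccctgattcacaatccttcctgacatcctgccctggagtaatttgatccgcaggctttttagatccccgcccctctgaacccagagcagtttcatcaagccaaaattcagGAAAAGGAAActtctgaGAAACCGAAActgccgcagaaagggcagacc
Ifitm2: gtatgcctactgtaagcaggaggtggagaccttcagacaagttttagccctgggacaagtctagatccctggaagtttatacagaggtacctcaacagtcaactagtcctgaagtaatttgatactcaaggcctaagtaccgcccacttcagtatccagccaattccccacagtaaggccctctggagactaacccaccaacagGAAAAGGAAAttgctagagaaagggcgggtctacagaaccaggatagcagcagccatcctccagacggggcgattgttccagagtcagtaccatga
H2-Aa: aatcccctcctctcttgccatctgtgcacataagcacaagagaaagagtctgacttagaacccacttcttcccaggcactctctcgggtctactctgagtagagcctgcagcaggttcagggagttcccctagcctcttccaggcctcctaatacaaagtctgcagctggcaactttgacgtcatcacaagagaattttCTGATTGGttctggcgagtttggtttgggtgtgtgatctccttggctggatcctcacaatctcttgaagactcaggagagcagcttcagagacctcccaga
The ISRE form began 2 and 19 bases after the start in Ifitm3 and 46 bases before it in Ifitm2, and the Y box form began 51 bases before the start in H2-Aa. Searched on both strands, the ISRE form was in 1131 of 32851 promoters (3.44%) and in 2 of the 21 called genes with an entry, Ifitm3 and Ifitm2. The Y box form was in 1346 promoters (4.1%) and in 3 of the 21, Plac8, H2-Aa, and Hmgb2. These matches describe the sequence alone. Ifi27l2a and H2-Ab1 had no entry.

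Both calprotectin genes rose. S100a8 stood at 5159.6, 565, and 3614 scaled CPM in healthy and 19926, 46423, 19915, and 47607 in CIA mice (3.39 ± 0.74, adjusted p = 0.02). S100a9, its partner, rose from 2163, 323, and 1279 to 7745, 13298, 7451, and 13612 scaled CPM (2.97 ± 0.54, adjusted p = 0.00997). In both, H4 was the lowest of all mice, and S3 and S8 were the highest. Both genes are abundant in neutrophils, and monocytes express them too. In the granulocytes of the same joints the pair made up 223400 to 386387 CPM, against 6801, 924, and 4945 in healthy and 31906, 54992, 29669, and 54434 in CIA macrophages. The non-myeloid cells held 9790, 2250, and 7836 and 23809, 28766, 37772, and 40814 CPM, so the pair was also higher in cells that should lack it. Without H7 the adjusted p was 0.101 for S100a8 and 0.0712 for S100a9. When macrophages with over 5% of their UMIs on the pair were removed, the log2 fold changes were 2.42 (adjusted p = 0.0553) and 1.78 (adjusted p = 0.0813). No healthy macrophage was above 5%, so this removal took only CIA cells, chosen on the pair itself, and lowers the difference by its construction.

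Genes of neutrophil granules, a sign of neutrophil RNA, were read beside these. The 16 listed granule genes, 15 of which had a UMI, made up 2687, 0, and 1068 CPM in healthy and 3517, 5130, 6028, and 8842 in CIA macrophages, and 4, Ltf, Lcn2, Wfdc21, and Mmp8, were higher without overlap and none was lower, against 1.77% higher and 1.81% lower of all genes with a UMI. Among the 273 genes tested in all, these shares were 11% and 9.89%. Of the 3 granule genes tested, none passed, with Camp (1.76 ± 0.65, adjusted p = 0.151), Ngp (2.00 ± 0.69, adjusted p = 0.125), and Retnlg (1.10 ± 0.75, adjusted p = 0.514). The non-myeloid cells held 2342, 447, and 1756 and 4134, 3428, 8665, and 7677 CPM, and the values of Ly6c2 and Plac8 above stand beside these. When macrophages with a granule UMI were removed, only H3, H4, and S1 kept 10 cells. In that fit 8 genes were called, of which 4 were among the 28, but S1 was the only CIA mouse and is assumed to vary like the healthy mice. The part of free RNA and of neutrophils sharing a well in the rise of the S100 and Plac8 values was not tested.

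The other genes that rose have varied roles. Esd, Mrpl33, Map1lc3b, and Hmgb2 passed the filter on low counts only through the CIA mice, which partly set their direction. Esd, an esterase of formaldehyde breakdown, rose from 339, 242, and 167 to 749, 1318, 1169, and 987 scaled CPM (1.96 ± 0.37, adjusted p = 0.0107). Mrpl33, a protein of the mitochondrial ribosome, rose from 156, 323, and 111 to 693, 1617, 742, and 1058 (2.41 ± 0.50, adjusted p = 0.0162). Prdx1, a peroxidase, rose from 1199, 484, and 1056 to 1812, 2875, 1869.7, and 2751 (1.25 ± 0.34, adjusted p = 0.048). In each of the 3 the highest value was in S3, and the second highest was in S8 or S5. Map1lc3b, a membrane tag of autophagy, rose from 130.3, 161, and 278 to 499, 719, 525, and 846 (1.74 ± 0.48, adjusted p = 0.0491), with the highest values in S3 and S8, the mice with the highest mitochondrial shares. Tmsb10, which binds actin monomers, rose from 1225, 1130.4, and 1112 to 3641, 1498, 4496, and 2257 (1.39 ± 0.38, adjusted p = 0.0491), and here S1 and S5 were the highest. Hmgb2, a chromatin protein of dividing cells, rose from 547, 242, and 55.6 to 1275, 1018, 987, and 1199 (1.78 ± 0.48, adjusted p = 0.048), and it was the only called gene of the 10 listed for the cell cycle, 2 of which were tested. Without H7, Esd had an adjusted p of 0.0712. Mrpl33 lost its call without H3 (0.0681) or H7 (0.0745), Tmsb10 without H3, H4, H7, S1, or S5 (up to 0.223), and Map1lc3b without any mouse (0.066 to 0.205). Prdx1 held without S5 alone (up to 0.159 otherwise), and Hmgb2 held without H3 alone (up to 0.131).

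Among the lower genes, Dcn encodes decorin, a matrix protein of fibroblasts. It stood at 1147, 565, and 889.5 scaled CPM in healthy and 73.9, 59.9, 161, and 0 in CIA macrophages (-3.12 ± 0.56, adjusted p = 0.00997). Fibroblasts are the source known for it, and in the non-myeloid joint cells it made up 9501, 11290, and 19739 CPM in healthy and 3538, 2921, 5490, and 2239 in CIA mice, lower in CIA there too. Of the 10 listed fibroblast genes, 9 had a UMI and only Dcn was tested. Dcn, like Rnase4 below, passed the filter on low counts only through the healthy mice, so its fall was partly set by the filter and is no result about the list. The list summed to 3461, 1765, and 3371 CPM in healthy and 1577, 1103, 1374, and 815 in CIA macrophages. Rnase4, a secreted ribonuclease, fell from 964, 727, and 556 to 55.5, 179.7, 98.0, and 0 scaled CPM (-3.19 ± 0.60, adjusted p = 0.0105), and in non-myeloid cells it was at 802, 463, and 557 against 262, 138, 352, and 0 CPM. Cst3, a secreted inhibitor of lysosomal proteases, fell from 2997, 4118, and 5393 to 1118, 899, 2087, and 635 scaled CPM (-1.72 ± 0.39, adjusted p = 0.0217). In non-myeloid cells Cst3 was at 4152, 7887, and 12117 against 2590, 1300, 2156, and 1343 CPM. For all 3 genes the healthy mice were above all CIA mice in both cell classes. Without H3, Dcn and Rnase4 were not called (adjusted p = 0.0858 and 0.138), and Cst3 was lost without H7 (0.118), S1 (0.0865), or S3 (0.0616), and without S3 and S8 together (0.109). The part of fibroblast RNA in these values was not tested.

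Fos, an immediate early gene that responds within minutes to stimuli and to tissue digestion, stood at 1277, 1373, and 889.5 scaled CPM in healthy and 434, 239.6, 378, and 282 in CIA mice (-1.70 ± 0.31, adjusted p = 0.00997). It was lower in all 4 CIA mice, and without S3 and S8 the adjusted p was 0.0795. Fos passed the filter on low counts only through the healthy mice, which partly set its direction. Junb (-0.72 ± 0.26, adjusted p = 0.141), Jun (-1.01 ± 0.50, adjusted p = 0.297), and Atf3 (-0.97 ± 0.41, adjusted p = 0.217), the other tested members of the 15 immediate early and heat shock genes listed, did not pass. Of the 15 genes, 7 were lower without overlap and none higher, against 1.77% higher and 1.81% lower of all genes with a UMI. Among the 273 genes tested in all, these shares were 11% and 9.89%. The list summed to 7552, 11345, and 9327 CPM in healthy and 6202, 3475, 5170, and 2822 in CIA macrophages. In non-myeloid cells it summed to 14212, 14027, and 13552 and 12420, 6798, 10513, and 4158, with every CIA mouse below the healthy mice there as well. The mitochondrial genes mt-Nd1 (-0.95 ± 0.22, adjusted p = 0.0223) and mt-Co1 (-1.33 ± 0.32, adjusted p = 0.0315), subunits of the respiratory chain, were each lower in every CIA mouse. They were lower although the 2 highest mitochondrial shares belonged to CIA mice, and both calls were lost without H4 (adjusted p = 0.129 and 0.141), H7, S1, or S3, and that of mt-Nd1 also without H3 (0.0681).

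The last genes that fell have other roles. Vaultrc5 and Cd9 passed the filter on low counts only through the healthy mice, which partly set their direction. Vaultrc5, a vault RNA annotated as a small non-coding gene, fell from 1407, 3149, and 1389.9 to 407, 359, 553, and 564 scaled CPM (-2.01 ± 0.36, adjusted p = 0.00997). H4 was the highest, and the 4 CIA mice lay close together. Nfkbia, the inhibitor that NF-kB itself induces, fell from 2814, 2422, and 2502 to 1285, 779, 1512, and 423 (-1.26 ± 0.35, adjusted p = 0.04997). Cd9, a tetraspanin of the cell surface, fell from 834, 1453, and 723 to 259, 299.5, 462, and 282 (-1.50 ± 0.38, adjusted p = 0.037). Nfkbia lost its call without H3, H4, H7, S1, or S3 (adjusted p of up to 0.159), and Cd9 without any mouse but S5 (up to 0.129). Nfkbia was the only one called of the 31 listed inflammatory mediators, of which 29 had a UMI and 4 were tested, with a median log2 fold change of -0.04. Cxcl2, a chemokine for neutrophils, did not pass (0.73 ± 0.44, adjusted p = 0.421). Of the 29 mediators, 3 were higher without overlap, the chemokines Ccl3 and Ccl8 and the acute phase gene Saa3, and 2 were lower, Nfkbia and Tnf, against 1.77% higher and 1.81% lower of all genes with a UMI. Among the 273 tested genes these shares were 11% and 9.89%.

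Several functions of macrophages had few or no called genes. Of 22 lysosome and phagocytosis genes, 7 were tested, Cst3 fell, none rose, and the median log2 fold change was 0.22. Ctss (0.43 ± 0.47, adjusted p = 0.684) and Lyz2 (0.60 ± 0.40, adjusted p = 0.503) did not pass. Of 14 lipid and iron genes, 6 were tested with a median of 0.09, and Cd9 fell, while Fth1 (0.52 ± 0.32, adjusted p = 0.421) and Ftl1 (0.14 ± 0.40, adjusted p = 0.88), the ferritin chains, did not pass. Of 12 Fc and complement receptor genes 2 were tested and none passed, with Fcer1g at 0.87 ± 0.36, adjusted p = 0.193 and Tyrobp at 0.52 ± 0.41, adjusted p = 0.568. Of 11 macrophage transcription factors, 2 were tested and none passed. Cebpb, a factor of myeloid and inflammatory genes, was higher in every CIA mouse (1.65 ± 0.49, adjusted p = 0.0658), and Id2 was lower in every CIA mouse (-0.92 ± 0.38, adjusted p = 0.193). Of the authors' 10 macrophage markers, 7 were tested and C1qc alone was called, with a median of 0.40. Cd14, the coreceptor for bacterial lipopolysaccharide, did not pass (0.40 ± 0.31, adjusted p = 0.568). In the fit without a filter on low counts, Cd68 was at 0.39 ± 0.68, adjusted p = 0.736, C1qa at -0.83 ± 0.67, adjusted p = 0.626, Rgs1 at -1.31 ± 0.64, adjusted p = 0.608, and Gatm at 0.10 ± 0.85, adjusted p = 0.953.

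Markers of T cells, B cells, and keratinocytes were at or near 0 in these macrophages, whereas granulocyte and fibroblast genes were not, as given above. T cell genes summed to 0 to 62.7, B cell genes to 0 to 62.7, keratinocyte genes to 0 to 7.59, endothelial genes to 0 to 508, and dendritic cell genes to 0 to 266 CPM over the 7 mice, and no gene of these lists was tested. Erythroid genes summed to 34515, 23866, and 10114 in healthy and 14131, 23221, 10629, and 85037 in CIA mice, with S8 the highest, and none of the 3 tested passed. Osteoclast and alveolar macrophage lists had no tested gene.

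Some genes that define resident macrophages were below the filter on low counts, and were read from a fit of all 15400 genes with a UMI, in which 11 (0.0714%) were called, 7 higher (0.0455%) and 4 lower (0.026%), and 1027 passed an unadjusted p of 0.05. The genes in these sentences were chosen after their values were seen, apart from their place in the lists. Lyve1, the hyaluronan receptor of resident macrophages near vessels, had 19, 6, and 5 UMIs in the healthy mice, or 495, 484, and 278 scaled CPM. None was seen in the 4 CIA mice, although these held more cells and more UMIs in all. Lyve1 UMIs were at least 36.6-fold below the 422 CPM of the healthy group, with 3 CIA UMIs (11.6 CPM) as the floor. They were at least 32.1-fold lower when a healthy mouse was left out. UMIs of the same cell are not independent, and few healthy cells held Lyve1, as given below, so these folds are no bound over cells. Lyve1 was the only list gene under the filter that was called (adjusted p = 2.82e-05), and the adjusted p was at most 0.023 when each mouse was left out in turn. Lyve1 lies at chr7:110850607-110863239 on the minus strand.

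Retnla, a secreted protein of alternatively activated macrophages, had 501, 0, and 57 UMIs in healthy and 8, 0, 25, and 0 in CIA mice. H3 alone held 501 of the 558 healthy UMIs and H4 held none, so the groups overlapped, and the call in the same fit (-5.26 ± 0.60, adjusted p = 3.12e-14) became a log2 fold change of -3.24 with an adjusted p of 0.0257 without H3. The calls of Ccl17 and Atf7 rested on H3, and their fold changes turned positive without it (2.01 and 2.14). I830127L07Rik, a gene of unknown role, had no UMI in healthy and 33, 1, 54, and 1 UMIs in CIA mice, at least 8.11-fold higher than the floor of 3 UMIs over the healthy group, and this call was lost when each healthy mouse, S1, or S5 was left out (adjusted p of up to 0.43 without H3).

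The same genes were then read cell by cell. Each cell was thinned to 400 UMIs, so that cells of different depth could be compared, and no macrophage was lost by this. A UMI of C1qa, C1qb, or C1qc was found in 37.0% (21.5 to 55.8%), 47.1% (26.2 to 69.0%), and 52.9% (31.0 to 73.8%) of the macrophages of the healthy mice, with the 95% Wilson interval in parentheses. In the CIA mice the shares were 15.7% (9.39 to 25.0%), 18.5% (8.18 to 36.7%), 23.6% (16.7 to 32.4%), and 9.52% (2.65 to 28.9%). All CIA mice were below all healthy mice, and the mean share was 45.7% against 16.8%. Without thinning the shares were 44.4%, 52.9%, and 64.7% in healthy and 19.3%, 18.5%, 31.8%, and 9.52% in CIA mice. Intervals cover counting error only, and cells of 1 mouse are not replicates.

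A UMI of Ly6c2 or Plac8 was found after thinning in 3.70% (0.657 to 18.3%), 0% (0 to 18.4%), and 5.88% (1.05 to 27.0%) of healthy macrophages. By the floor of 3 counts, the 0 of 17 cells in H4 allow up to 17.6% of cells with a UMI at this depth, which is no limit on the cells that express the genes. In the CIA mice the shares were 47.0% (36.6 to 57.6%), 37.0% (21.5 to 55.8%), 51.8% (42.6 to 60.9%), and 42.9% (24.5 to 63.5%), all above the healthy mice, with means of 3.20% against 44.7%. Non-myeloid cells, which should lack both genes and whose median depth was 710 to 1153 UMIs before the same thinning to 400 UMIs, held a UMI after it in 9.17%, 2.94%, and 6.25% in the healthy and 13.2%, 12.3%, 22.0%, and 26.7% in the CIA mice. The healthy macrophages were below the non-myeloid cells of the same mouse and the CIA macrophages above them. Unthinned, the macrophage shares were 11.1%, 0%, and 11.8% and 57.8%, 44.4%, 60.9%, and 66.7%, and those of the non-myeloid cells were 24.2%, 6.62%, and 12.5% and 23.9%, 17.8%, 39.9%, and 33.3%, in the same order within each mouse.

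Class II genes were found after thinning in 77.8%, 58.8%, and 64.7% of healthy and 36.1%, 25.9%, 36.4%, and 19.1% of CIA macrophages. In non-myeloid cells the shares were 19.2%, 3.68%, and 18.8% and 6.03%, 8.22%, 17.6%, and 13.3%, below the macrophages of each mouse, though in S8 by 2 of 15 against 4 of 21 cells. Ifi27l2a was found in 11.1%, 5.88%, and 0% of healthy and 47.0%, 33.3%, 42.7%, and 23.8% of CIA macrophages. Its shares in non-myeloid cells were 1.67%, 2.94%, and 2.08% and 15.5%, 12.3%, 14.1%, and 6.67%, so these were higher in CIA too and lay below the macrophages in each mouse but H7. Lyve1 was found in 3.70%, 17.6%, and 17.6% of healthy cells and in none of the 241 CIA cells, which allows up to 1.24% of cells with a UMI at this depth. In non-myeloid cells Lyve1 was found in 3 of 120, 0 of 136, and 0 of 48 cells of the healthy and 0 of 348, 0 of 73, 1 of 313, and 0 of 15 of the CIA mice. In each of the 3 sets the macrophage shares of the groups did not overlap.

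At this depth the cells with C1q were mostly not the cells with Ly6c2 or Plac8. After thinning, 5 of the 46 CIA cells with C1q (10.9%) also held a UMI of Ly6c2 or Plac8, against 110 of the 195 CIA cells without C1q (56.4%). By mouse, the counts were 0 of 13 and 39 of 70 in S1, 1 of 5 and 9 of 22 in S3, 4 of 26 and 53 of 84 in S5, and 0 of 2 and 9 of 19 in S8. The share was lower among the C1q cells in each of the 4 mice, though S3 and S8 had few such cells. In healthy mice it was 0 of 27 and 2 of 34. Without thinning, 16 of the 58 CIA cells with C1q (27.6%) held such a UMI, against 125 of the 183 without C1q (68.3%), so the overlap depends on depth. The 16 cells were 5 of 16 in S1, 1 of 5 in S3, 10 of 35 in S5, and 0 of 2 in S8.

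**Figure D3:**
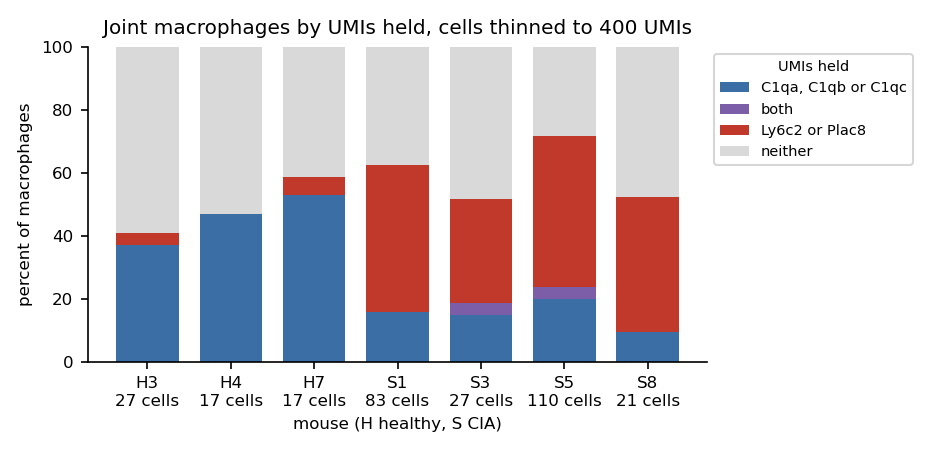
Stacked share in percent of the joint macrophages of each mouse with a UMI of C1qa, C1qb, or C1qc, of Ly6c2 or Plac8, of both, or of neither, after thinning each cell to 400 UMIs. Cells with C1q make up 37.0 to 52.9% in the healthy mice and 9.52 to 23.6% in the CIA mice.

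Splitting the cells by these UMIs, without thinning, showed in which of them the other genes lay. The split was chosen after the values were seen, and each cell's group depends on its depth, so levels are given as descriptions with no test. Cells with C1q and no Ly6c2 or Plac8 numbered 12, 9, and 11 in healthy and 11, 4, 25, and 2 in CIA mice. Their class II genes made up 12122, 6068, and 16172 CPM in healthy and 12377, 11042, 16258, and 8299 in CIA mice, which overlapped. Cells with Ly6c2 or Plac8 and no C1q numbered 43, 11, 57, and 14 in the CIA mice, and their class II genes made up 1268, 385, 1291, and 0 CPM, below the C1q cells of the same mouse in all 4. Cells with neither held 18100, 37918, and 24013 in healthy and 12894, 3398, 11447, and 1298 in CIA mice, where the groups did not overlap. Cd74 had the same order, at 4491, 5761, 6789, and 4979 CPM in the C1q cells of CIA mice against 494, 0, 422, and 0 in their Ly6c2 or Plac8 cells. In the C1q cells of healthy mice Cd74 was at 4859, 3280, and 7632, a range within which all 4 CIA values lay.

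Other genes differed between CIA and healthy mice within the C1q cells too. Ifi27l2a made up 157, 164, and 90.8 CPM in the C1q cells of healthy and 1205, 2400, 1601, and 829.9 in those of CIA mice, without overlap. The healthy values rest on 3, 1, and 1 UMIs and that of S8 on 1 UMI in 2 cells, so S8 is not set apart from the healthy mice by counts. In the Ly6c2 or Plac8 cells of CIA mice it was at 2420, 2055, 2800, and 735, a range that covers that of the C1q cells. Lyve1 had 29 of its 30 UMIs in C1q cells of healthy mice, at 940.5, 984, and 454 CPM, and none in C1q cells of CIA mice. Cst3 was at 3553, 4756, and 7359 in the C1q cells of healthy and 1643, 1440, 3133, and 829.9 in those of CIA mice, and Fos at 1724, 1476, and 1363 and 876, 0, 522, and 829.9. In both, every CIA mouse was below the healthy mice, though S3 and S8 rest on 4 and 2 cells. Ifitm3 showed another pattern, at 1663, 1027, 2135, and 826 CPM in the Ly6c2 or Plac8 cells of CIA mice against 876, 0, 557, and 0 in their C1q cells and 418, 0, and 90.8 in healthy C1q cells. Ccr2, the receptor that draws monocytes into tissue, was at 395, 1027, 486, and 0 CPM in the Ly6c2 or Plac8 cells of S1, S3, S5, and S8. In healthy mice it was at 694 and 0 in the 3 and 2 such cells of H3 and H7, and at 369, 517, and 0 in cells with neither. Over all macrophages Ccr2 overlapped between the groups and did not pass in the fit without a filter (1.02 ± 0.69, adjusted p = 0.626).

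**Figure D4:**
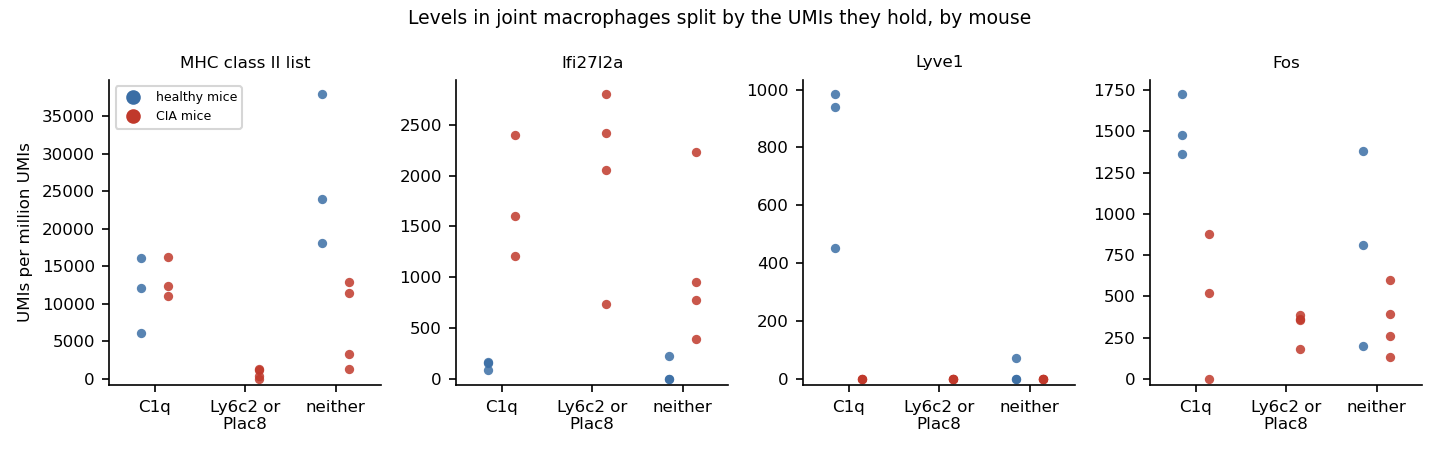
CPM (y axis) of the class II list, Ifi27l2a, Lyve1, and Fos in joint macrophages split by whether a cell held a UMI of C1q, of Ly6c2 or Plac8, or of neither, with 1 point per mouse and only groups of 4 or more cells drawn. Class II genes stand at 11042 to 16258 in the C1q cells of the CIA mice drawn and at 0 to 1291 in their Ly6c2 or Plac8 cells, while Ifi27l2a is higher in CIA than in healthy mice within the C1q cells.

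The differences in macrophages were next set against those in non-myeloid cells of the same joints. In a model of both cell classes, 0 of 1401 genes (0%) had a CIA effect that differed between macrophages and non-myeloid cells by edgeR, and 46 passed an unadjusted p of 0.05. Both classes come from the same mice. With the mouse as a block, 16 genes were called, 5 with a higher and 11 with a lower effect in macrophages. The largest higher effect was that of Ly6c2 (4.71 ± 0.86, adjusted p = 0.00104). Ctsl (2.70 ± 0.59, adjusted p = 0.0126), Apoe (1.96 ± 0.47, adjusted p = 0.0189), Cebpb (2.03 ± 0.53, adjusted p = 0.0268), and Mgst1 (2.47 ± 0.67, adjusted p = 0.0413) were the others. Of the genes called in macrophages, Vaultrc5 also had a lower effect there (-1.81 ± 0.41, adjusted p = 0.0126). H2-Aa (-1.78 ± 0.55, adjusted p = 0.123), Plac8 (1.80 ± 0.71, adjusted p = 0.338), Rnase4 (-1.82 ± 0.53, adjusted p = 0.0906), S100a8 (1.13 ± 0.38, adjusted p = 0.187), Ifi27l2a (0.86 ± 0.72, adjusted p = 0.875), and Cst3 (0.34 ± 0.39, adjusted p = 0.942) did not pass.

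**Figure D5:**
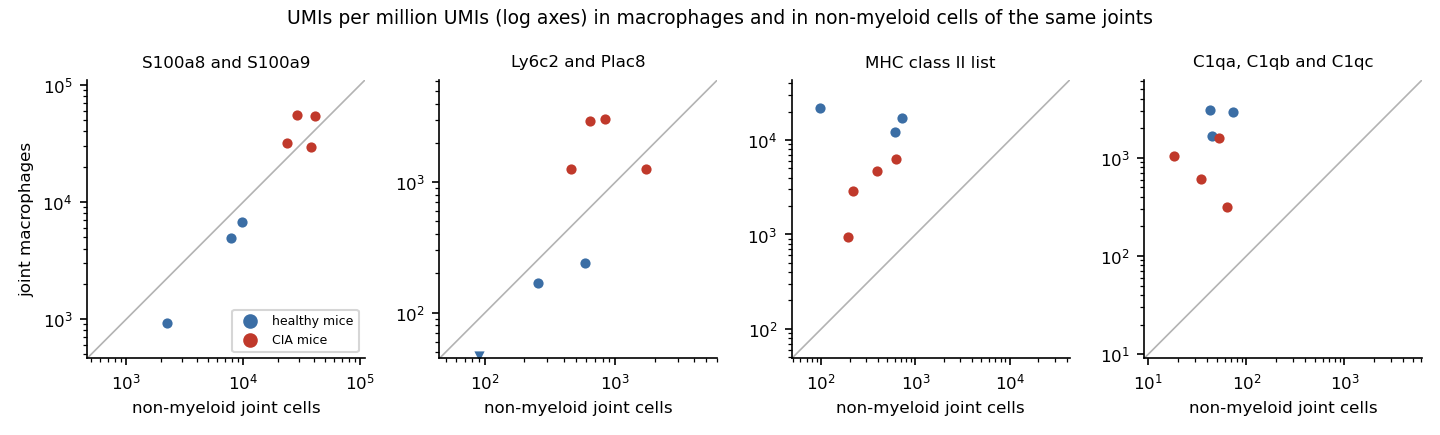
CPM in the joint macrophages (y axis) against the non-myeloid cells of the same joint (x axis), both logarithmic, with 1 point per mouse, the line marking equal levels and a triangle a macrophage value of 0. S100a8 with S100a9 is higher in CIA in both cell classes and lies below the line in the healthy mice, Ly6c2 with Plac8 lies above the line in 3 of 4 CIA mice and below it in the healthy mice, and the class II and C1q genes lie above the line in every mouse.

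Macrophages of muscle and lung were compared with those of the joint. Of the mice with enough cells, 4 of the 7 with muscle macrophages and 7 of the 10 with lung macrophages were also in the joint comparison. Of 563 genes, 7 (1.24%) had a CIA effect that differed between joint and muscle, 4 higher in the joint (0.71%) and 3 lower (0.533%). The higher ones were Ly6c2 (5.38 ± 1.10, adjusted p = 0.0331), Esd (2.70 ± 0.54, adjusted p = 0.0331), Mrpl33 (2.82 ± 0.59, adjusted p = 0.0331), and Map1lc3b (2.67 ± 0.59, adjusted p = 0.0366). The lower ones were H2-Aa (-3.46 ± 0.80, adjusted p = 0.0366), H2-Ab1 (-3.39 ± 0.78, adjusted p = 0.0366), and Cst3 (-2.37 ± 0.53, adjusted p = 0.0366). In muscle, H2-Aa ranged from 693 to 4777 CPM in 3 healthy mice and from 3130 to 11232 in 4 CIA mice. Ly6c2 ranged from 525 to 1002 there in healthy and from 217 to 550 in CIA mice, so CIA muscle macrophages were not the higher ones for this gene. None of the 7 was called when any healthy mouse was left out, with 0 calls without H3, H4, H6, or H7, and 2 calls remained without S1 or without S3. A fit with the mouse as a block rests only on the mice with enough macrophages in both organs, H4 and H7 against S3 and S5. With the mouse as a block 13 genes were called, 3 of them among the 7, namely H2-Aa (-3.19 ± 0.81, adjusted p = 0.0433), H2-Ab1 (-2.75 ± 0.70, adjusted p = 0.0433), and Cst3 (-2.40 ± 0.61, adjusted p = 0.0433), while Ly6c2, Esd, Mrpl33, and Map1lc3b were not called (adjusted p = 0.0596, 0.0636, 0.159, and 0.0728). The block added S100a9 (5.70 ± 1.01, adjusted p = 0.00472), S100a8 (5.59 ± 1.11, adjusted p = 0.00988), Dcn (-7.24 ± 1.34, adjusted p = 0.00587), and Vaultrc5 (-3.68 ± 0.83, adjusted p = 0.0241), which are among the 28 genes and had adjusted p of 0.0606 to 0.0988 without it. Ifi27l2a in muscle went from 77.1 to 121 CPM in healthy to 775 to 1789 in CIA mice, without overlap, and its effect was not called as different.

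Against the lung, 1 of 788 genes (0.127%) had a different CIA effect. It was F13a1, the coagulation factor subunit that monocytes and macrophages express (-5.14 ± 1.00, adjusted p = 0.0192), and with the mouse as a block it was called together with S100a6, Hp, and Mgst1. In the lung F13a1 ranged from 0 to 9.63 CPM in healthy mice and from 69.3 to 522 in CIA mice, while in the joint it did not pass the test. The call was lost without H3 and without S1, with 0 genes called in each case. Ly6c2 ranged in the lung from 0 to 32.6 in healthy and from 225 to 664 in CIA mice (-0.35 ± 1.09, adjusted p = 0.935), H2-Aa from 1628 to 3119 and from 116 to 1213 (-0.69 ± 0.53, adjusted p = 0.673), and Ifi27l2a from 0 to 119 and from 520 to 2048 (-0.62 ± 0.78, adjusted p = 0.841). For these 3 genes the lung groups did not overlap, and their order was that of the joint.

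The share of macrophages among annotated joint cells overlapped between the groups. It was 15.6, 10.7, and 23.6% in the healthy mice and 13.7, 21.4, 11.5, 3.51, and 25.3% in the CIA mice S1, S3, S5, S6, and S8. The means were 16.6% ± 6.52 (SD, n = 3) and 15.1% ± 8.56 (SD, n = 5), with a two-sided exact permutation p of 0.821, where the smallest possible p was 0.0357. Among joint cells other than granulocytes and neutrophils, the means were 18.4% ± 7.56 (n = 3) and 25.9% ± 18.6 (n = 5), with an exact permutation p of 0.643, so the direction of the difference depended on the denominator. It also turned when H7 or S6 was left out, to 1.95 and 1.36 percentage points higher in CIA.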

How the data were processed

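Joint macrophages, their marker genes, and all gene lists were chosen with earlier results of these data known. Per the paper's methods, the authors aligned reads to GRCm38 with STAR, counted unique molecular identifiers (UMIs) with Drop-seq tools, and deposited the raw UMI counts of each cell. Their annotation, also deposited, names the organ, the disease state, and the type of each cell, the last from clusters and reference profiles after denoising. Their limits of at least 400 UMIs and 200 genes and under 20% mitochondrial UMIs per cell held in the table, whereas their upper limit of 6000 UMIs had not been applied (1 joint macrophage was above it). No doublets were removed here.

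UMI counts of the macrophages were summed per mouse, and 3 healthy and 4 CIA mice with 10 or more cells, each a separate animal, were compared with edgeR 4.0.16 in R 4.3.3 (quasi-likelihood test, TMM factors, default filterByExpr, Benjamini-Hochberg adjustment over all 273 genes tested, threshold 0.05). Standard errors were computed from the log2 fold change and the F statistic. Scaled CPM are UMIs over the TMM-scaled library size, and plain CPM are UMIs over all UMIs of the same cells. A gene that was high in 1 group alone could pass the filter through that group. The direction of such a gene and the median of its list are then partly set by the filter. Genes under the filter were read from a fit of all genes with at least 1 UMI. Differences of the CIA effect between joint and muscle or lung macrophages, or non-myeloid joint cells, were interactions in the same tool. Libraries of 1 mouse name come from 1 animal. Their deviations from the group means correlated at -0.056 to 0.202 for muscle (4 mice), -0.0842 to 0.123 for lung (7 mice), and 0.119 to 0.556 for non-myeloid cells (7 mice). Because the animals were shared, the mouse was fitted as a block and its values are given where they change the call of one of the 28 genes. Shares of cells were compared by a two-sided exact permutation test, with 95% Wilson intervals for single samples and 3 counts as the floor of a count of 0. For UMIs this floor takes each UMI as independent, which UMIs of the same cell are not. Cells were thinned to 400 UMIs with seed 1.

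The test was run on simulated counts of 265 genes in these 7 libraries. It found 95.2% of the 63 genes that had been changed by a log2 of 2, and 7.69% of its calls were false. Genes named are the 28 called genes, the markers, and per list up to 4 members with the most UMIs and those with the extreme changes. Lyve1, Retnla, Ccl17, Atf7, I830127L07Rik, Csf1r, Adgre1, Ccr2, the other members named as not overlapping, the summed sets of C1q genes and of Ly6c2 with Plac8, and the split of cells were chosen after their values were seen. Alternatives were DESeq2 1.42.0, other scaling, no filter, other cell minimums, the experiment as a term or alone, removal of cells with granule UMIs, and each mouse left out. Leaving out S3 and S8 for their mitochondrial share, leaving out macrophages with over 5% of UMIs on S100a8 and S100a9, and leaving out mice for the genes under the filter were added after seeing the data. A gene of the monocyte-derived list is not reported here, and the list's counts and sums leave it out. Promoters came from a RefSeq table of GRCm38.p6. Python 3.11.15, numpy 2.4.6, scipy 1.17.1, pandas 2.3.3, and matplotlib 3.10.9 were used for the rest.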

Additional observations from a re-analysis of the deposited data

Results flagged for a closer look

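Of 53 groups of 4 or 5 CIA mice searched for a far value by Dixon's test, of which chance alone gives about 1 in 20, 4 had one. Ms4a6c stood at 423 scaled CPM in S8, below the 638 to 672 of the other CIA mice. The erythroid list summed to 85037 CPM in S8, far above the other CIA mice, and whether hemoglobin RNA moves with the other values of S8 was not tested. Keratinocyte genes summed to 7.59 CPM in S5 and alveolar macrophage genes to 63.9 in S1, where the other CIA mice held none. Where all other mice hold none, any UMI gives such a flag, and S5 and S1 had the largest libraries.

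The CIA effect differed between joint and muscle macrophages by a test of the interaction in 7 genes. The log2 difference, joint minus muscle, was 2.70 for Esd, 5.38 for Ly6c2, 2.82 for Mrpl33, 2.67 for Map1lc3b, -2.37 for Cst3, -3.39 for H2-Ab1, and -3.46 for H2-Aa. Against lung macrophages it was -5.14 for F13a1.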

How the results depend on the processing

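Of the 28 genes called between CIA and healthy joint macrophages, 25 were among the 29 called by DESeq2. The count was 11 (6 shared) with no filter on low counts, 10 (4 shared) with 20 or more cells per mouse, where H3 was the only healthy mouse and is assumed to vary like the CIA mice, 1 (Ifi27l2a) in the experiment CIA alone, and 8 (4 shared) without macrophages holding granule UMIs, where S1 was the only CIA mouse. Leaving out each mouse gave 7 to 25 calls. No filter moved the median log2 fold change by 0.535, turned the sign of 76 of the 273 genes, and made 63.6% of its calls higher, against 50% with the filter. Plain library sizes moved the median by -0.106. For joint against muscle, the 7 calls became 13 with the mouse as a replicate block, 2 with plain library sizes, 13 with no filter (1 shared), and 0 to 13 when each mouse was left out (13 without S2). That block rests on H4 and H7 against S3 and S5. For joint against lung, 1 call became 4 with the block, 0 with no filter (1058 genes at an unadjusted p under 0.05), and 0 to 2 when each mouse was left out (2 without H4, H6, S5, or S8). For macrophages against non-myeloid cells, 0 calls became 16 with the block. The 1 called list gene under the filter (Lyve1) stayed 1 when each mouse was left out. The share of macrophages among joint cells, CIA minus healthy, was -1.54 percentage points, 7.42 without granulocytes and neutrophils, and -4.51 to 1.95 when each mouse was left out (1.95 without H7, 1.36 without S6). The share of cells with Ly6c2 or Plac8 was 41.5 points higher in CIA, and 49.8 without thinning. The causes were not tested. No paired analysis was possible because the healthy and CIA mice are different animals, for the main comparison. Depth limits what could be tested: the smallest library held 11900 UMIs, and 273 of 15400 genes with a UMI passed the filter.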
